A study of Mus musculus with 6 samples.

Results

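The genes described here are Hif1a, the glucose transporter gene Slc2a1 and 8 genes of glycolytic enzymes, Hk2, Aldoa, Tpi1, Gapdh, Pgk1, Eno1, Pkm and Ldha. They were taken as a set by Ensembl gene ID, not by a rule on measured values, though with earlier results of these data known. They make up 10 of the 48505 genes and 1640 of the 5193362 windows in the deposited tables. The samples were 6 anti-m6A RNA immunoprecipitation (IP) libraries of pooled male and female fetal hearts from wild-type FVB/NJ mice, 3 from dams with sham exposure and 3 from dams that inhaled titanium dioxide nanoparticles (nano-TiO2). The dams were 10 weeks old, and from gestational day 5 they breathed filtered room air (sham) or a nano-TiO2 aerosol with a target of 12 mg/m3 in a whole-body chamber, on 6 days within an 8-day span. The nano-TiO2 aerosol ran for 360 minutes a day, and tissue was taken on gestational day 15. The title of the series places the study at m6A in offspring after inhalation in pregnancy, and the comparison below asks which of the 10 genes gave more or less IP signal after it. Each sample is a pool of hearts, and the labels used here do not say which litters went into which pool, so p-values measure the spread between these pools.

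Glycolysis splits glucose into pyruvate in the cytosol, and lactate dehydrogenase turns pyruvate into lactate where oxygen is short. HIF-1α, the protein that Hif1a encodes, is broken down when oxygen is plentiful; in hypoxia it pairs with ARNT and binds hypoxia response elements in genes of glucose uptake and glycolysis. The fetal heart develops at low oxygen tension and is known to draw much of its energy from glycolysis and lactate. The antibody binds N6-methyladenosine (m6A), a methylated adenosine of messenger RNA that is often found close to the stop codon. An anti-m6A IP level per gene moves both with the amount of its RNA and with the mark, and in whole hearts fewer cells of a type and less RNA per cell cannot be told apart.

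The libraries held 20205024 to 31523675 reads. The 10 genes took 0.901% to 1.26% of them, with overlap between the groups. The 4 genes with the most reads, treated as 1 group and named here only by ID (ENSMUSG00000069917, ENSMUSG00000069919, ENSMUSG00000073940 and ENSMUSG00000052305), took 20.6% to 35.2% in the sham and 8.03% to 18.0% in the nano-TiO2 libraries. Of the reads outside those 4 genes, the 10 genes held a mean of 1.41% ± 0.128 across the sham pools and 1.22% ± 0.143 across the exposed pools (SD, n = 3 each). The files pair no ID with a symbol, and 0 of the 48505 IDs matched the symbol table used here, so heart markers and the rest of the pathway were not counted.

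Because HIF-1 binds the core letters ACGTG and GCGTG, the RefSeq promoters (build GRCm38.p6, 250 bases before to 50 after each start site) of the 10 genes were searched for both on both strands. All 10 genes had at least 1 promoter, 16 in all; a pair of promoters of Aldoa and a pair of Eno1 overlap and share motif letters, which the counts over promoters take more than once and the counts over genes do not. ACGTG was present in 9 of the 16 promoters, from 8 of the 10 genes, against 19.6% of all 32851 promoters. GCGTG was present in 7 of the 16, from 4 genes, against 32.4% of all promoters. Either motif was present in 13 of the 16, from 9 genes, against 43.8%, and Tpi1 had neither in this window. The stretches below come from genes whose IP level rose (Hif1a, Hk2), fell (Aldoa, Gapdh, Ldha) or did not pass the test (Pgk1), written 5′ to 3′ on the strand of the gene with the motif in capitals. CACGTG reads the same on both strands and so holds ACGTG on each of them, in overlapping letters.
Hif1a, chr12:73907721-73907750, + strand: acacagacaagCACGTGagcggggcagctc
Hk2, chr6:82774489-82774518, − strand: aatgagcacatcCACGTcactgtccggggc
Aldoa, chr7:126799363-126799392, − strand: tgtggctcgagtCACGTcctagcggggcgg
Gapdh, chr6:125165810-125165839, − strand: gttcggagcccaCACGCttggtGCGTGcac
Pgk1, chrX:106186938-106186967, + strand: gcgtcgtgcaggACGTGacaaatggaagta
Ldha, chr7:46845745-46845774, + strand: ggcccagcctaCACGTGggttcccgCACGT
Motif cores thus stood in promoters of genes that rose, of genes that fell and of a gene that did not pass. These letters are a description of the windows searched; no binding was measured.

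Between sham and nano-TiO2, IP levels of the 10 genes did not move together. Hif1a, the oxygen-regulated transcription factor subunit, and Hk2, the hexokinase that traps glucose in the cell, rose by about a doubling. Aldoa, Tpi1, Gapdh and Ldha fell by 0.52 to 0.81 on the log2 scale. Slc2a1, Pgk1, Eno1 and Pkm did not pass the test. Levels are normalized reads per gene: windows were summed after the read counts of each library had been divided by its size factor. Changes were tested with limma (two-sided) as log2(value + 1), and p-values were adjusted after Benjamini-Hochberg over 18566 genes, with 0.05 as the threshold. In that fit 24% of all genes rose and 12% fell, so 2 of 10 rising is close to the background share and 4 of 10 falling is above it. The share depends on level, however. In the top of 5 equal classes by level, with 9 of the 10 genes and all 4 that fell, 12.4% rose and 32.5% fell. The excess of falling genes over 12% is thus not particular to these 10. The median log2 change was -0.45 over the 10 genes, 0.13 over all genes and -0.27 over that class.

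Hif1a (ENSMUSG00000021109) had 863, 782 and 1056 normalized reads in sham replicates 1, 2 and 3. In nano-TiO2 replicates 1, 2 and 3 it had 2231, 1881 and 1562. Every nano-TiO2 library lay above every sham library, with the widest step to replicate 1. The log2 change was 1.07 ± 0.18 (SE), with an adjusted p of 0.0027 in limma. Over the 6 libraries, the IDs with a profile most like that of Hif1a were ENSMUSG00000021306 and ENSMUSG00000020986, both at a Pearson r of 0.998 on log2 levels. As 2018 of 18556 genes had an r above 0.9 with Hif1a over these 6 points, such likeness is common here.

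Slc2a1 (ENSMUSG00000028645) encodes GLUT1, the main glucose transporter of fetal tissue. It had 3513, 3658 and 2250 normalized reads in sham against 2110, 4486 and 2304 in nano-TiO2. The groups overlapped, and nano-TiO2 replicate 2 was the highest of the 6. Its log2 change was -0.14 ± 0.30 (limma adjusted p = 0.756), and the sign depended on the scaling and on single libraries.

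Hk2 (ENSMUSG00000000628) had 407, 394 and 374 normalized reads in sham against 619, 943 and 784 in nano-TiO2. The sham libraries lay close together (CV 4.15%) and all 3 nano-TiO2 libraries lay above them. This made a log2 change of 0.98 ± 0.18 (limma adjusted p = 0.0038). Hk2 was the lowest of the 10 genes, at 2.47 normalized reads per window.

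Aldoa (ENSMUSG00000030695) encodes aldolase A, which splits fructose bisphosphate, and gave the most IP signal of the 10. It had 95801, 91851 and 93046 normalized reads in sham against 66588, 65720 and 63209 in nano-TiO2. Replicates lay close together in both groups (CV 2.17% and 2.69%), and the groups did not overlap. Limma gave a log2 change of -0.52 ± 0.13 (adjusted p = 0.0153). The call was lost without nano-TiO2 replicate 1 (adjusted p = 0.0656), without nano-TiO2 replicate 3 (adjusted p = 0.0622) and when low genes were kept in the fit (adjusted p = 0.128), at nearly the same size of change.

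Tpi1 (ENSMUSG00000023456) encodes triosephosphate isomerase, which follows aldolase in the pathway. It had 39311, 39308 and 40374 normalized reads in sham against 25227, 25240 and 25965 in nano-TiO2. It had the narrowest spread within groups of all 10 genes (CV 1.55% and 1.66%), with no overlap. The log2 change was -0.64 ± 0.12 (limma adjusted p = 0.0048).

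Gapdh (ENSMUSG00000057666) encodes the dehydrogenase of the next step and is often used as a reference gene. It had 17553, 15309 and 15782 normalized reads in sham against 9515, 8890 and 9314 in nano-TiO2. All 3 nano-TiO2 libraries lay below the sham libraries, and the change was the largest fall of the 10 genes. Between groups it fell by 0.81 ± 0.13 on the log2 scale (limma adjusted p = 0.0021). Gapdh and several other glycolytic genes are known to have processed pseudogenes; the labels do not say how reads shared with such copies were counted, so these levels are uncertain to that extent.

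Pgk1 (ENSMUSG00000062070) encodes phosphoglycerate kinase, the first ATP-yielding step of glycolysis. It had 12539, 11732 and 10592 normalized reads in sham against 11474, 12609 and 11745 in nano-TiO2. The groups overlapped, and the log2 change was 0.04 ± 0.13 (limma adjusted p = 0.83). Its CV over all 6 libraries, 6.32%, was the smallest of the 10 genes.

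Eno1 (ENSMUSG00000063524) encodes enolase 1. It had 43656, 41073 and 31644 normalized reads in sham against 22226, 39211 and 22993 in nano-TiO2. Nano-TiO2 replicate 2 lay among the sham libraries, and the other two nano-TiO2 libraries lay below all of them. Its log2 change was -0.50 ± 0.24 (limma adjusted p = 0.132); without nano-TiO2 replicate 2 it was -0.77 (adjusted p = 0.013).

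Pkm (ENSMUSG00000032294) encodes pyruvate kinase M, the last step before pyruvate. It had 66357, 60601 and 58792 normalized reads in sham against 43661, 56735 and 41224 in nano-TiO2. The groups did not overlap, and nano-TiO2 replicate 2 was again the closest to sham. The log2 change was -0.40 ± 0.16 (limma adjusted p = 0.0843), and without nano-TiO2 replicate 2 it was -0.54 (adjusted p = 0.0233).

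Ldha (ENSMUSG00000063229) encodes the lactate dehydrogenase subunit A. It had 54478, 46509 and 52827 normalized reads in sham against 36668, 35721 and 32595 in nano-TiO2, with no overlap. Ldha fell by 0.55 ± 0.14 on the log2 scale (limma adjusted p = 0.0146). The call was lost without sham replicate 1 (adjusted p = 0.0544), without nano-TiO2 replicate 3 (adjusted p = 0.0655) and when low genes were kept in the fit (adjusted p = 0.074).

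**Figure D1:**
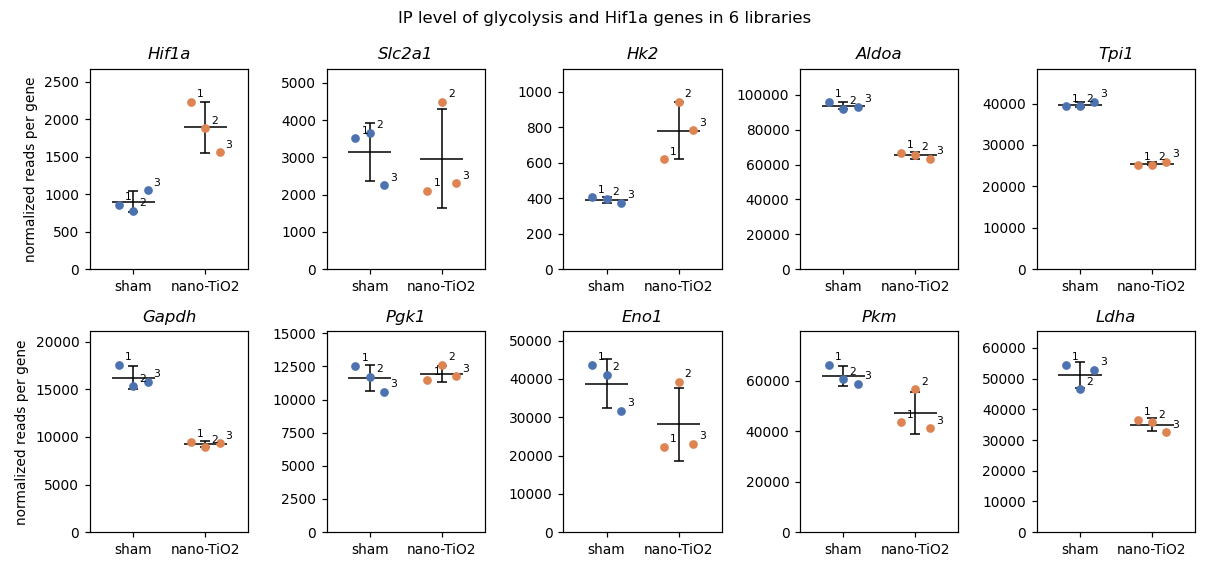
IP level of the 10 genes in each library, in normalized reads per gene on linear axes from 0, with points numbered by replicate and bars for the mean ± SD (n = 3 per group). Hif1a and Hk2 lie higher in all nano-TiO2 libraries, Aldoa, Tpi1, Gapdh, Pkm and Ldha lower, and nano-TiO2 replicate 2 stands near the sham points for Eno1 and Pkm.

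In all, 2 of the 10 genes lay above and 5 below sham with no overlap between groups. Over all genes tested, 30.9% lay above and 18.5% below without overlap. The genes that fell lay together across the 6 libraries: between Aldoa, Tpi1, Gapdh and Ldha the Pearson r of log2 levels ran from 0.948 to 0.991. Hif1a and Hk2 ran against Tpi1 at -0.939 each. Eno1 and Pkm formed a closely matched pair (r = 0.945), and Slc2a1 matched Eno1 best (r = 0.853); in all 3 genes nano-TiO2 replicate 2 was the highest library of its group. These r values describe 6 libraries that fall into 2 groups and share their size factors, and carry no test.

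The 4 genes with the most reads also had lower IP levels in nano-TiO2, so the choice of scaling was varied. With each library set to the same total, 3 of the 10 genes rose (Hif1a, Hk2 and Pgk1) and none fell, while the median of all genes stood at 0.62, and 43.2% of all genes rose and 0.908% fell. Leaving the 4 genes out of the totals gave Hif1a and Hk2 higher and Tpi1 and Gapdh lower, against an all-gene median of 0.40, with 34% of all genes higher and 5.44% lower. Quantile normalization, with an all-gene median of -0.05, also gave Hif1a, Hk2 and Pgk1 higher and none lower, where 16.6% of all genes rose and 15.1% fell. TMM scaling gave the same 6 calls as the deposited scaling, with 22.5% of all genes higher and 15% lower, and the same 6 came from edgeR and DESeq2 on the recovered reads. Under each of these scalings Hif1a and Hk2 had a log2 change above the median of all genes. For Tpi1 and Gapdh it was below the all-gene median and below 0 in each, while Aldoa lay at 0.16 under quantile normalization.

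Gene length moved with the IP change as well. Genes were put into 5 equal classes by number of windows. In class 4, with Hif1a, Hk2, Eno1 and Pkm, 31.5% of genes rose and 3.37% fell. In class 3, with Slc2a1, Aldoa, Tpi1, Gapdh and Ldha, 19.1% rose and 7.24% fell, and in class 2, with Pgk1, 9.21% rose and 14.1% fell. In 5 like classes by level, 9 of the 10 genes were in the top class, where 12.4% rose and 32.5% fell; Hk2 was in the class below, where 27.9% rose and 11.7% fell. With the trend on length removed, Hk2 rose by 0.51, the change of Hif1a was 0.61 with a limma adjusted p of 0.0571, and 6 genes fell, Eno1 and Pkm among them, where 11.4% of all genes rose and 13% fell. The part of length and level in the changes of the 10 genes beyond this fit was not tested.

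**Figure D2:**
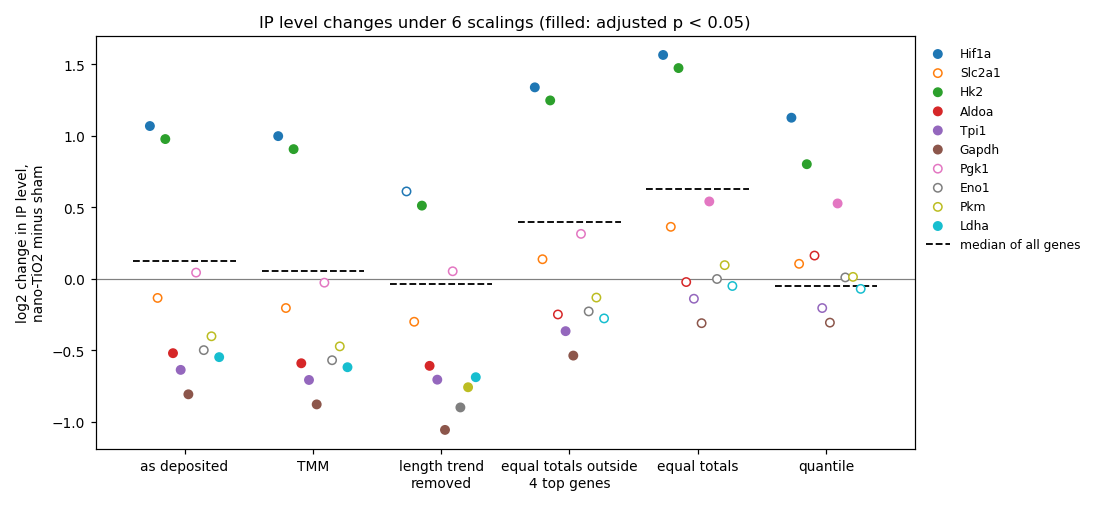
Log2 change in IP level of the 10 genes (nano-TiO2 minus sham) under 6 scalings, with a dashed line at the median of all genes and filled points for an adjusted p under 0.05 in limma. Hif1a and Hk2 stay on top under every scaling, while the 4 falling genes move toward 0 under equal totals and quantile normalization.

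The deposited tables also hold an adjusted score for each window. In each library the adjusted windows of a gene were its normalized windows divided by 1 factor and rounded, and what that factor was made from is not stated. The log2 change of the factor had the sign of the IP change in all of the 10 genes but Pgk1. The factor is normalized over adjusted, so this likeness is in part built in. It was 0.787, 0.570 and 0.861 for Hif1a in sham against 1.45, 1.31 and 1.02 in nano-TiO2, and 1.23, 1.18 and 1.27 for Tpi1 in sham against 0.748, 0.767 and 0.807 in nano-TiO2. By limma over 13489 genes the factor rose for Hif1a and fell for Aldoa, Tpi1, Gapdh, Pkm and Ldha, where 17% of all genes rose and 20.1% fell. The log2 change of the factor was 0.78 ± 0.24 for Hif1a (adjusted p = 0.0305) and -0.66 for both Tpi1 and Gapdh (adjusted p = 0.0241 each). These calls depended on single libraries, and so did those of all genes. Without sham replicate 1, 0 of the 10 genes passed, where 10.1% of all genes rose and 2.79% fell. When replicate 1 or replicate 3 of nano-TiO2 was left out, 0 of the 10 and 0 of all 13489 genes passed. Without sham replicate 2 there was 1 of the 10, where 9.49% of all genes rose and 1.78% fell. Without sham replicate 3 there were 4, where 17% rose and 14.8% fell. Without nano-TiO2 replicate 2 there were 7, where 16% rose and 19.4% fell.

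After the adjustment, none of the 10 genes passed the test in limma, and neither did any of all 19361 genes (0%). At an unadjusted p under 0.05 there were 3592 of all genes (18.6%) and 5 of the 10. Hk2 had adjusted scores of 423, 510 and 448 in sham against 578, 814 and 655 in nano-TiO2, and its log2 change of 0.56 ± 0.15 was the largest of the 10 (adjusted p = 0.179). Slc2a1 had 2701, 3182 and 2416 in sham against 3476, 3407 and 3330 in nano-TiO2 (log2 change 0.31, adjusted p = 0.201). Its nano-TiO2 scores had a CV of 2.15% and lay above all sham scores, where its IP levels had overlapped with a CV of 44.5%. Hif1a had 1091, 1403 and 1241 in sham against 1547, 1436 and 1535 in nano-TiO2 (log2 change 0.28, adjusted p = 0.233). These sizes depended on the scaling. With the length trend removed the log2 change was 0.29 for Hk2, 0.12 for Slc2a1 and 0.019 for Hif1a, and under TMM scaling it was 0.39, 0.15 and 0.12.

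Eno1 had adjusted scores of 30329, 34504 and 30688 in sham against 35230, 36329 and 36616 in nano-TiO2, and Pkm had 51042, 55982 and 48689 against 58086, 59601 and 58356. In these scores nano-TiO2 replicate 2 no longer stood apart, with a CV over the nano-TiO2 libraries of 2.03% for Eno1 and 1.38% for Pkm. Gapdh had 13984, 12526 and 13181 in sham against 12765, 11244 and 11788 in nano-TiO2, with overlap and a log2 change of -0.15 (adjusted p = 0.321); it was -0.31 under TMM scaling and -0.36 with the length trend removed. Under TMM scaling the changes of Eno1 and Pkm were 0.019 and 0.017. Tpi1, at 32027, 33375 and 31748 against 33699, 32886 and 32166, and Ldha, at 44475, 41942 and 43928 against 47784, 39111 and 41641, overlapped as well.

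For 7 of the 10 genes (Hif1a, Slc2a1, Hk2, Aldoa, Pgk1, Eno1 and Pkm), every nano-TiO2 score lay above every sham score, against 19.4% of all genes. That share is over genes of all levels, and no share for genes of like level is given. Under TMM scaling the changes of Aldoa and Pgk1 were -0.054 and -0.070, while those of the other genes named stayed above 0. The median log2 change of the scores was 0.14 over the 10 genes and 0.17 over all genes, so the 10 did not stand above the rest in size. Sham replicate 2 was the highest sham library in the scores of Hif1a, Slc2a1, Hk2, Aldoa, Tpi1, Pgk1, Eno1 and Pkm. Without it Hif1a, Slc2a1, Hk2, Eno1 and Pkm passed the test, with adjusted p from 0.0281 to 0.0487 in limma, and so did 8.32% of all genes in that direction. With libraries weighted by their quality in limma the same 5 genes rose and Gapdh fell, where 22.5% of all genes rose and 3.43% fell. Sham replicate 2 had the lowest weight there, 0.368, and nano-TiO2 replicate 3 the highest, 4.46. The weighted run is thus not independent of the run without sham replicate 2.

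**Figure D3:**
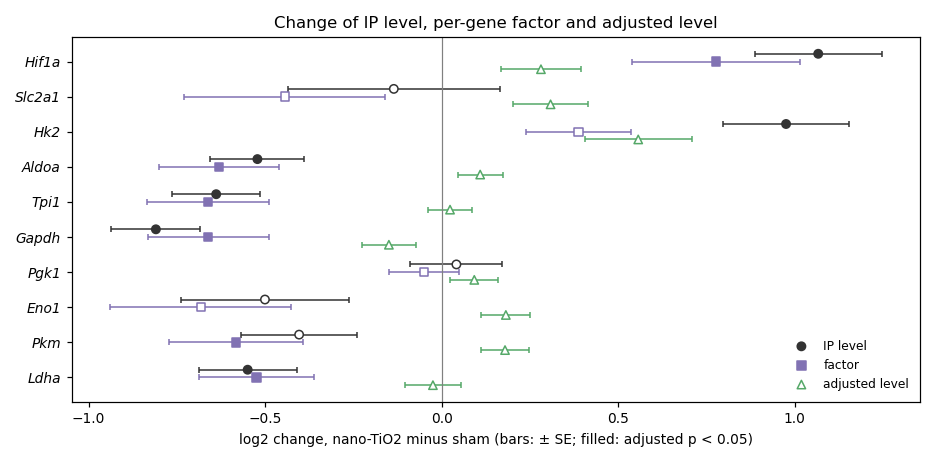
Log2 change (nano-TiO2 minus sham, ± SE) of the IP level, the per-gene factor and the adjusted level of each gene, with filled symbols for an adjusted p under 0.05 in limma. Circles and squares lie on the same side of 0 for 9 of the 10 genes, and all triangles, from -0.15 for Gapdh to 0.56 for Hk2, are open.

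**Figure D4:**
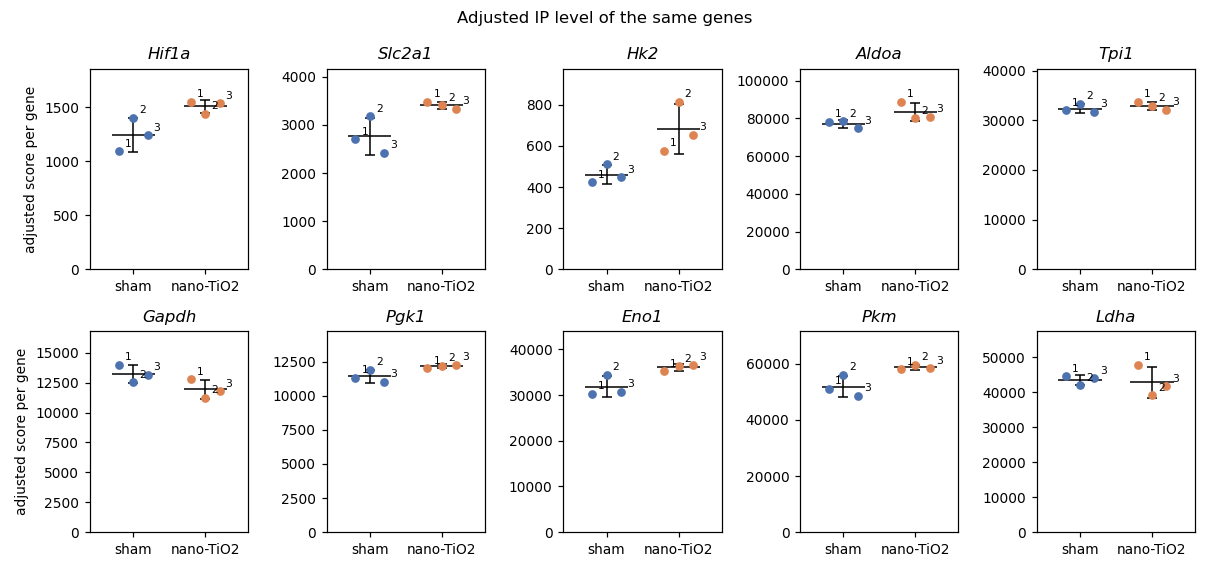
Adjusted score of the 10 genes in each library on linear axes from 0, with points numbered by replicate and bars for the mean ± SD (n = 3 per group). In 7 genes all nano-TiO2 points lie above the sham points; those of Tpi1, Gapdh and Ldha overlap.

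Level was compared between genes only per window, since windows start 25 nucleotides apart in 99.5% of cases and so stand for length. In normalized reads per window over the 6 libraries the order was Aldoa at 684, Ldha at 327, Tpi1 at 296, Pkm at 273, Eno1 at 156, Pgk1 at 132, Gapdh at 77.1, Slc2a1 at 21.8, Hif1a at 5.94 and Hk2 at 2.47. Ldha lay above Tpi1 in 5 of 6 libraries, Tpi1 above Pkm in 5 and Eno1 above Pgk1 in 4, so these neighbours have no settled order. The ranges of Hif1a and Hk2 over the libraries overlapped as well, but within each of the 6 libraries Hif1a was 2.01 to 3.65 times as high as Hk2. The order also depends on windows with few or no reads. In Gapdh 42 of its 165 windows reached a mean of 10 and held 99.2% of its signal, with a median of 240 normalized reads among those 42. In Pgk1 77.5% and in Eno1 35.8% of windows reached that mean, with medians of 167 and 455. By that median Gapdh lay above Pgk1, the reverse of the order per window, and Eno1 lay well above Pgk1.

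Window by window, the genes that fell differed in how many of their tested windows fell. Of the 1640 windows, 613 reached a mean of 10 and were tested with limma among 250317 windows, where 3.88% rose and 7.32% fell. Of those 613, 1 rose and 109 fell. The falling windows were 37 of 42 in Gapdh, 39 of 61 in Tpi1, 22 of 67 in Ldha and 11 of 65 in Aldoa. All 67 tested windows of Ldha and all 42 of Gapdh had a negative log2 change. In Hk2 all 6 tested windows and in Hif1a 15 of 28 had a sham mean under 10, so they reached the minimum only through the group where they were high, and their direction is no result. Over all windows with a read and with no minimum, the nano-TiO2 mean was above the sham mean in 206 of 225 windows of Hif1a and 178 of 207 of Hk2. These counts restate the change per gene, and no share over all windows stands beside them. In the whole series, too, more windows had a read in nano-TiO2 libraries (1271555 to 1484331) than in sham libraries (997523 to 1145132). The window that rose was in Hif1a, start 4601, with 5.40, 8.76 and 5.41 normalized reads in sham against 13.4, 20.7 and 20.1 in nano-TiO2 (log2 change 1.35, limma adjusted p = 0.046); it too reached the minimum only through the nano-TiO2 group. Windows overlap the same fragments and are not independent. The counts depended on single libraries: 24 windows passed without sham replicate 1, 51 without sham replicate 2 and 57 without sham replicate 3. The count was 30 with replicate 1 of nano-TiO2 left out, and 34 with replicate 3 of that group left out. It was higher, at 160, when nano-TiO2 replicate 2 was dropped, and all 160 of those windows fell.

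On the adjusted scores, 0 of 614 windows passed in limma, against 8 of all 253327 windows (0.00316%). Each window was also set against the other windows of its gene with limma's diffSplice, which called 116 of 249423 windows (0.0465%). Of the 10 genes 1 window was called, in Tpi1 at start 179, with 10, 7 and 10 reads in sham against 9, 9 and 17 in nano-TiO2. It stayed level while the rest of Tpi1 fell (log2 difference 0.66, adjusted p = 0.0104), and the call was lost without sham replicate 2. At so few reads it carries little of the signal of Tpi1, where the highest window held 1153 normalized reads on average.

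**Figure D5:**
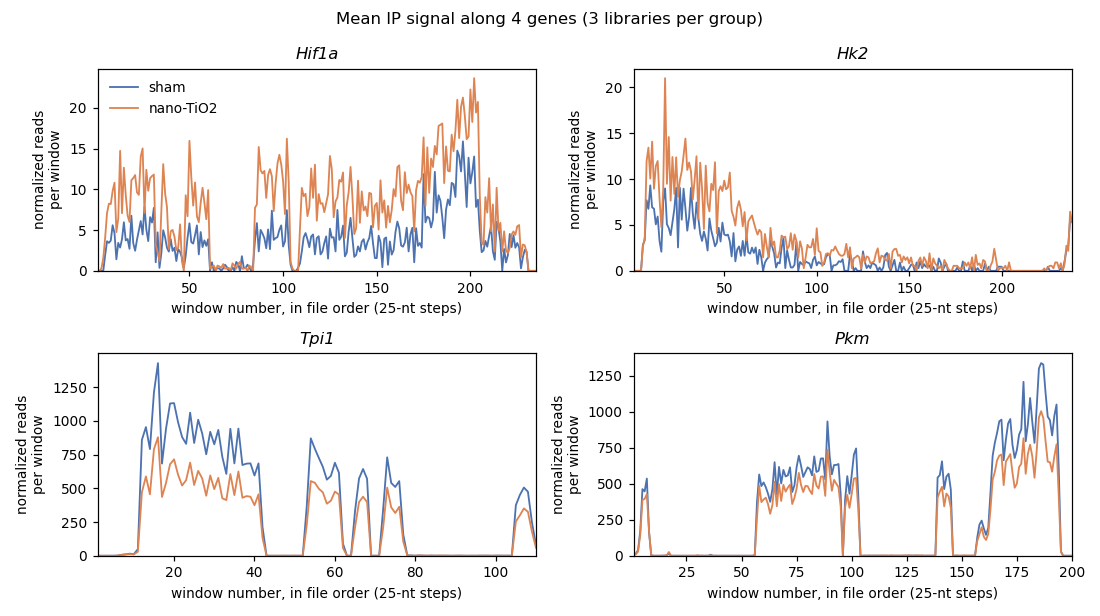
Mean normalized reads per window along Hif1a, Hk2, Tpi1 and Pkm by window number in file order, for sham and nano-TiO2 (3 libraries each). Over windows with a read, the nano-TiO2 line lies mostly above sham in Hif1a and Hk2 and mostly below it in Tpi1 and Pkm.

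Where the signal lay within a gene followed its strand. By RefSeq, Hif1a, Slc2a1, Pgk1, Eno1, Pkm and Ldha are on the + strand, and 54.1% to 83.5% of their reads lay beyond the midpoint of their windows in file order. Hk2, Aldoa, Tpi1 and Gapdh are on the − strand, with 0.483% to 28.7% there. If the files number windows by genome position, more reads lay in the 3′ part of each gene on average; the orientation of the numbering is not stated. In Slc2a1 this lean was slight, with 49.9% past the midpoint in nano-TiO2 replicate 2, and its first 25% of windows held more reads than its last 25% in all 6 libraries. The highest window was the same in all 6 libraries for Tpi1 (start 379), Gapdh (start 384), Pgk1 (start 1751) and Ldha (start 2976). In Pkm, 6 windows from start 3901 to 4026, chosen after the values were seen, stood at 23.7% ± 4.68 of the level of the next 6 windows in the sham pools, and at 23.1% ± 7.81 in those of nano-TiO2 (SD, n = 3 each). Pkm is known for alternative exons that give the M1 and M2 forms; which exon these windows lie in was not determined here.

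Hif1a was the gene whose signal shifted most along its length. The last 25% of its windows held 37.5%, 37.0% and 39.3% of its reads in sham and 31.4%, 27.5% and 34.0% in nano-TiO2, without overlap. Its level rose 1.70-fold in those 58 windows, from 343 ± 65.0 to 583 ± 102 normalized reads, and 2.35-fold in the other 177, from 557 ± 75.6 to 1309 ± 255 (SD, n = 3 each). The shift of 6.99 percentage points had an exact two-sided permutation p of 0.1, the smallest that 3 against 3 allows, and 0.6 after Benjamini-Hochberg adjustment over 30 comparisons. Of those 30 (the first 25%, the last 25% and the 5 highest windows of each gene), 3 did not overlap: both of Hif1a, in the last 25% and in the 5 highest windows, and the last 25% of Gapdh, at 0.323% ± 0.0331 against 0.433% ± 0.046. The shares of all genes without overlap were 13.1%, 13.5% and 13.6%.

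The libraries themselves differed in this respect. At the end with more reads, the share in 25% of windows was highest in sham replicate 2 for 8 of the 10 genes and lowest in nano-TiO2 replicate 2 for 9 of them, against 25.7% and 28.3% of all genes. In Aldoa it was 44.6%, 46.4% and 44.3% in sham against 42.8%, 41.9% and 45.5% in nano-TiO2. Aldoa, Gapdh, Pgk1, Eno1, Pkm and Ldha shared 1 order of all 6 libraries, in which nano-TiO2 replicate 3 came right after sham replicate 2 and the other two nano-TiO2 libraries came last. Nano-TiO2 replicate 3 was then left out, a choice made after these values were seen, so the separation that follows is no test. Without it, 23 of the 30 shares had no overlap between groups, where 28.5%, 28.7% and 25.8% of all genes had none in the 3 kinds of share. Shares of genes with the same order of libraries are not independent. Whether this difference between libraries has a part in the levels above was not tested.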

How the data were processed

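The 10 genes and the lists were chosen with earlier results of these data known. The submitters' processing notes name the build GRCm39, DESeq2 1.34.0, HISAT2 2.2.1 and Salmon 1.5.2 without roles. Neither the labels nor the headers state how windows were counted or whether strand was used. The authors deposited a normalized signal per window, which was checked to be whole read counts divided by 1 size factor per library (100% of values within 0.0001), and an adjusted score per window. Gene levels are sums over windows. A mean of 10 or more over 6 libraries was required of a gene or window, and tests used limma 3.58.1 in R 4.3.3 (trend) on log2(value + 1), which understates changes of low genes, with no covariates and Benjamini-Hochberg adjustment. The factor, normalized over adjusted, was bounded by the rounding of each window of a gene. The geometric middle of these bounds was used where their relative width was at most 0.2. All 10 genes are named, whatever their values, with the 4 genes with the most reads and the 2 IDs most like Hif1a. Alternatives were other scalings, filters, weights, a replicate block, each library left out, and edgeR 4.0.16 and DESeq2 1.42.0 on the recovered reads. Scripts were tested on simulated data. Input reads were not used here.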

Additional observations from a re-analysis of the deposited data

How the results depend on the processing

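With replicate numbers as a block, 6 of the 10 genes passed in IP level (2 higher, 4 lower), where 22.6% of all genes rose and 12% fell. In adjusted level 0 of the 10 passed, and 0% of all genes. In the factor 0 of the 10 passed, where 10.4% of all genes rose and 3.43% fell. In IP level 140 windows passed. The labels do not say whether the numbers pair the samples. In IP level, deviations of same-numbered libraries from their group means correlated at -0.37, 0.18 and 0.02. With 3 libraries per group these values cannot settle it. In IP level, 3 genes passed under quantile normalization and 3 under equal totals. In adjusted level, 6 passed with library weights, and 0 to 5 with 1 library left out. The factor called 0 to 7 with 1 library left out. IP windows numbered 24 to 160 with 1 library left out, 170 under TMM and 210 at a mean of at least 50. Within genes, 0 to 2 windows passed with 1 library left out, and 5 at a mean of at least 1. No share over all windows is given for the window counts of these runs. Shares along genes without overlap numbered 3 to 23 with 1 library left out, an alternative chosen after seeing the data.

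Values that changed sign were those of genes that had not passed, other than Aldoa in IP level. Under quantile normalization the IP change was 0.10 for Slc2a1, 0.16 for Aldoa, 0.0079 for Eno1 and 0.012 for Pkm. Under equal totals it was 0.36 for Slc2a1 and 0.094 for Pkm, and without the 4 genes with the most reads 0.14 for Slc2a1. Under TMM it was -0.029 for Pgk1. With 1 library left out it ran from -0.48 to 0.067 for Slc2a1 and from -0.023 to 0.098 for Pgk1. In adjusted level, TMM gave -0.054 for Aldoa, -0.14 for Tpi1 and -0.070 for Pgk1. With the length trend removed the values were -0.046 for Aldoa, -0.12 for Tpi1, -0.023 for Pgk1, -0.069 for Eno1 and -0.062 for Pkm. Ldha ran from -0.11 to 0.038 with 1 library left out. The factor of Pgk1 ran from -0.091 to 0.013, and was 0.065 with centred libraries. The causes were not tested. Hif1a and Hk2 rose in IP level in every alternative run, except Hif1a with the length trend removed (0.61, adjusted p = 0.0571 in limma). Depth limits Hk2 most, with 6 windows tested.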
